A study of Mus musculus with 6 samples.

Results

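The echinoderm microtubule-associated protein-like (EML) genes Eml1, Eml2, Eml3, Eml4 and Eml5 were followed in resting mouse CD4 T cells treated with vasoactive intestinal peptide (VIP). They were selected by gene name, after the response of Eml1 to VIP on these same arrays was known. They are 5 of the 27975 distinct gene names on the array, some of which are only probe, cDNA or transcript identifiers. Their VIP ratios are therefore given as a description, without a p-value. The array holds 10 probes for these 5 genes, each of 60 bases: 2 for Eml1, 1 each for Eml2, Eml3 and Eml4, and 5 for Eml5.

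The study compared VIP-treated with untreated cells on 6 Agilent 2-colour arrays. Both samples of a replicate number shared an array, which gives 6 samples for each treatment. The dyes were swapped, with the treated RNA in Cy5 for replicates 1, 3 and 5 and in Cy3 for the other replicates. All samples were CD4 cells taken with magnetic beads from spleens of C57BL/6J mice, males and females aged 6 to 32 weeks, with 5 to 10 spleens pooled for a sample. The labels name no transgene or deletion in either group, and treatment with VIP is the one difference they give. Neither its dose nor its duration is stated in the sources used here.

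EML proteins bind microtubules, the hollow tubulin filaments that carry cargo, build the mitotic spindle and turn the centrosome of a T cell towards its target. Most of each protein is a propeller-shaped repeat domain, and Eml1 to Eml4 also have an amino-terminal coiled coil that joins copies of the protein and holds them on the filament. Eml5 and its relative Eml6 lack that coiled coil and carry the repeat domain several times in a row. VIP, a signalling peptide of nerves and lymphoid tissue, binds G protein-coupled receptors on lymphocytes and raises their cyclic AMP.

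The results turn on Eml1, whose probes gave different VIP ratios, and the beginning of each is shown because they read different stretches of the transcribed strand. The first 30 of the 60 bases are printed 5′ to 3′, with the stop triplets TAA, TAG and TGA of any sense reading frame in capitals.
A_51_P421279: acactggggactgtatctcggatcttTAAa
A_52_P54609: gtggtttaTGAgtgtaTAAatcccTAGgat
Over its 60 bases, A_51_P421279 (designed on NM_001043335) was open in 1 of the 3 sense frames, while A_52_P54609 (designed on the cDNA AK082168) held stops in all 3. Their GC contents were 41.7% and 35%. Both lie on the plus strand of chromosome 12 in mm9, A_51_P421279 at chr12:109777494-109777553 and A_52_P54609 at chr12:109769264-109769323, 8230 bases before it. Whether either lies in an exon or a UTR was not analysed here.

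Of the 10 EML probes, 9 passed the filter on signal, and the tenth, an Eml5 probe, is described without a fit. A probe was called where a limma model of the VIP ratio gave an adjusted p under 0.05. One of the 9 tested EML probes was called, the Eml1 probe A_51_P421279, which was higher with VIP. The family was chosen with this response known, so that call is a description and not a test of Eml1. Over all 27454 tested probes 2.78% were called in either direction and 1.69% were called as higher. The log2 ratios of the 9 EML probes had a median of 0.07, with 7 positive and 2 negative, and the median over all probes was 7.4e-05. These 9 include the Eml1 probe whose response was known and a second Eml1 probe that passed the filter only through its VIP-treated samples. Several others read the same gene, Eml5. The values are thus not independent, and a shift of the family was not tested. These arrays read RNA of whole cell samples, so more or fewer cells of a type and more or less RNA per cell cannot be told apart.

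Eml1, a gene needed in the mouse brain for neural progenitors to divide in their normal place, gave the one large VIP ratio of the family. The normalised log2 intensity of A_51_P421279 ran from 10.33 to 10.61 in the 6 VIP-treated samples, with a median of 10.50. In the 6 untreated samples it ran from 9.53 to 9.82, with a median of 9.74. The lowest VIP-treated sample thus stood above the highest untreated one, as was the case for 0.135% of all tested probes. The probe was well above background in all 12 samples.

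For this Eml1 probe the log2 ratio, treated over untreated, was 0.77, 0.82, 0.80, 0.76, 0.75 and 0.76 on replicates 1 to 6. Every array thus showed nearly the same difference, whichever dye the treated RNA carried. The fitted log2 ratio was 0.78 ± 0.039 (SE, n = 6), with a 95% interval of 0.69 to 0.86, or 1.71-fold. It ranked 13th from the highest among the tested probes. Limma draws the variance of each probe towards that of all tested probes, which makes this SE larger than the 6 ratios alone would give. Within the 3 slides the means were 0.79, 0.78 and 0.76. Before any normalization, the background-subtracted signal of Cy5 against Cy3 was 2180 against 506 on replicate 1, where VIP was in Cy5. On replicate 2, where VIP was in Cy3, it was 1510 against 982, so the raw dye balance differed between the orientations as the treatment did.

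The SD of the 6 ratios of this Eml1 probe was 0.026, against a median of 0.139 over the 24952 probes measured on 6 arrays. A smaller SD was seen for 0.148% of those probes, and for 2 of the 735 called ones. Its dye effect, the part of a ratio that follows Cy5 rather than the treatment, was -0.002 on the log2 scale. The levels behind the ratios were less even than the ratios. Both samples of slide 2 with VIP stood at 10.33 and 10.34 and their untreated partners at 9.53 and 9.58, the lowest of their groups. The 2 levels of an array come from the same spot and the same average intensity. With ratios this even they move together by construction.

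**Figure D1:**
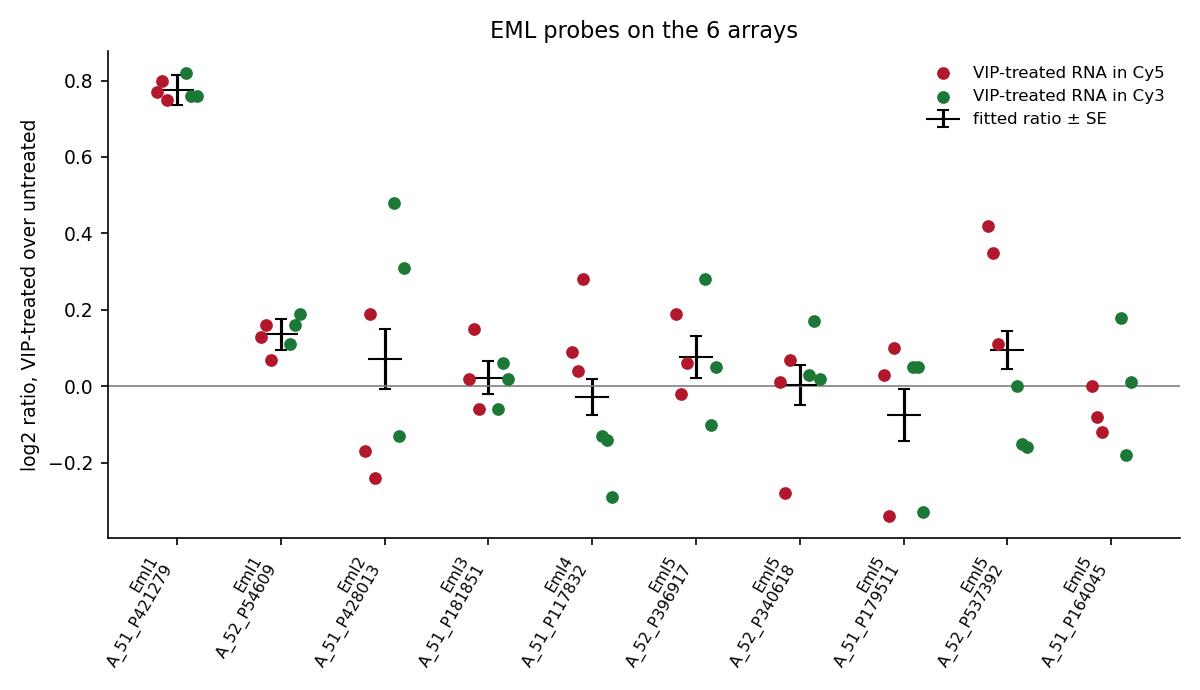
Log2 ratio of VIP-treated over untreated on each of the 6 arrays for the 10 EML probes, with the dye that the VIP-treated RNA carried marked by colour and the fitted value with its SE for the 9 tested probes. The 6 points of Eml1 A_51_P421279 lie between 0.75 and 0.82, while the points of the other genes lie on both sides of 0.

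The second Eml1 probe, A_52_P54609, gave a smaller ratio near the detection limit. Its log2 intensity ran from 6.38 to 6.64 with VIP (median 6.58) and from 6.27 to 6.50 without (median 6.45), so the groups overlapped. It was well above background in 4 of 6 VIP-treated and 2 of 6 untreated samples. Detection went with the dye: only the Cy5 sample was above background on replicates 1, 2, 3 and 5, both were on replicate 6 and neither on replicate 4. These counts therefore do not show more detection with VIP. Its log2 ratio was 0.13, 0.11, 0.16, 0.16, 0.07 and 0.19 on replicates 1 to 6. The fitted value was 0.14 ± 0.040 (SE, n = 6), and it was not called. Both Eml1 probes were thus higher with VIP on 6 of 6 arrays, as were 3.69% of all tested probes, but none of the other 7 tested EML probes was. A_52_P54609 passed the filter on signal only through its VIP-treated samples, so its direction is no separate support for a rise of Eml1.

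The difference between both Eml1 probes depended on how background was handled. On single arrays the ratio of A_51_P421279 exceeded that of A_52_P54609 by 0.56 to 0.71 (mean 0.64, SD 0.053, n = 6). With the smaller normexp offset of 10, a constant added to all signals after background correction, A_51_P421279 stood at 0.81 and A_52_P54609 at 0.26, and the latter was then called too. With the scanner software's processed signals they stood at 0.83 and 0.60. The background-subtracted signal of A_52_P54609 was 27.3 to 67.0 in Cy5 and 19.2 to 32.0 in Cy3, close to the offset of 50 itself. When the 2 probes were averaged before the fit, Eml1 stood at 0.46.

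**Figure D2:**
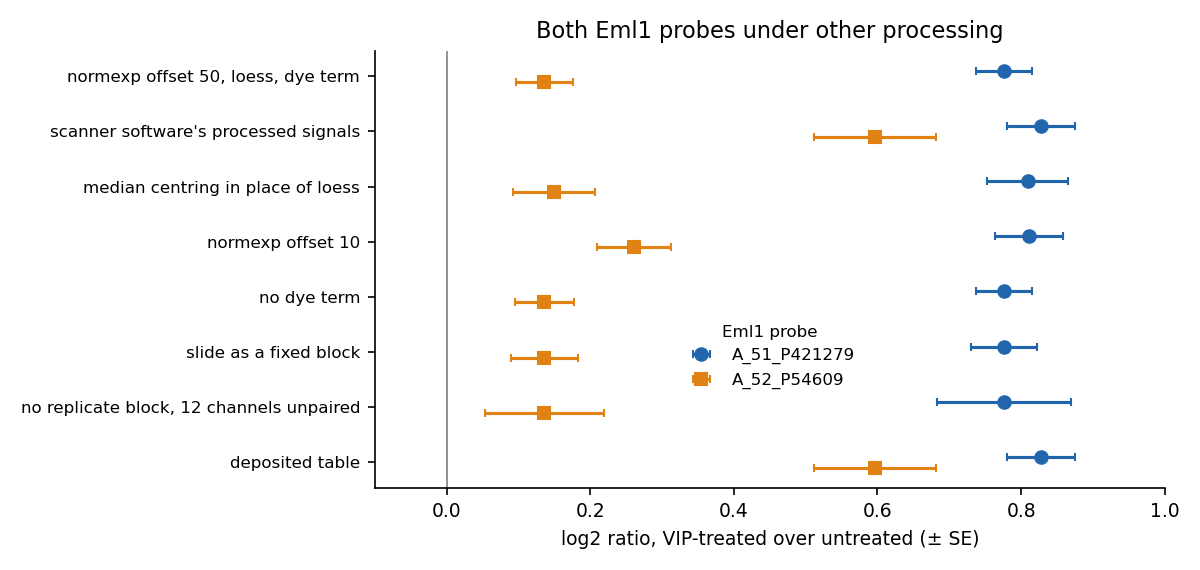
Fitted VIP ratio on the log2 scale, with its SE, for both Eml1 probes under the main processing (top) and 7 others. A_51_P421279 stays between 0.78 and 0.83, while A_52_P54609 runs from 0.14 with an offset of 50 to 0.60 with the processed signals and the deposited table.

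Eml2, which in test-tube work slows microtubule growth, showed no shared direction over the arrays. Its probe A_51_P428013 lies on the plus strand at chr7:19791697-19791756. Its log2 intensity ran from 11.76 to 12.31 with VIP (median 11.86) and from 11.53 to 12.12 without (median 11.96), and the groups overlapped over most of their range. The log2 ratio was -0.17, 0.48, 0.19, -0.13, -0.24 and 0.31 on replicates 1 to 6, positive on 3 arrays and negative on 3. The fitted value was 0.07 ± 0.079 (SE, n = 6), with a 95% interval of -0.10 to 0.25. This is the widest standard error of the 9 tested EML probes.

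Eml3, which helps to recruit the machinery of spindle microtubule nucleation in dividing cells, differed by little between treatments. Its probe A_51_P181851 lies on the plus strand at chr19:9015943-9016002. The log2 intensity ran from 13.29 to 13.72 with VIP (median 13.52) and from 13.34 to 13.70 without (median 13.43). Per array the log2 ratio was 0.02, -0.06, 0.15, 0.06, -0.06 and 0.02. The fitted value was 0.02 ± 0.044 (SE, n = 6), and its 95% interval of -0.07 to 0.12 leaves out a change as large as that of Eml1. Without replicate 3 its sign turned, to -0.006.

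Eml4, the family member known from the EML4-ALK fusion of lung cancer, varied more between arrays than with treatment. Its probe A_51_P117832 lies on the plus strand at chr17:83878638-83878697. The log2 intensity ran from 10.83 to 11.71 with VIP (median 11.14) and from 10.81 to 12.01 without (median 10.99). The untreated range of 1.19 was wide, and 94.5% of the probes on 6 arrays had a smaller SD among untreated samples, against 10.5% for Eml1 A_51_P421279. Both samples of replicate 6 were the highest of their groups, at 11.71 with VIP and 12.01 without. Both samples of an array are read from the same spot, so variation of spots and of samples cannot be told apart here.

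The log2 ratio of Eml4 was 0.09, -0.13, 0.04, -0.14, 0.28 and -0.29 on replicates 1 to 6. It was positive on each array with VIP in Cy5 (mean 0.13) and negative on each with VIP in Cy3 (mean -0.19), so its direction followed the dye. The dye effect was 0.16 ± 0.047 (SE, adjusted p = 0.0454 by limma). With the dye effect fitted, the VIP ratio was -0.03 ± 0.047 (SE, n = 6), with a 95% interval of -0.13 to 0.08.

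**Figure D3:**
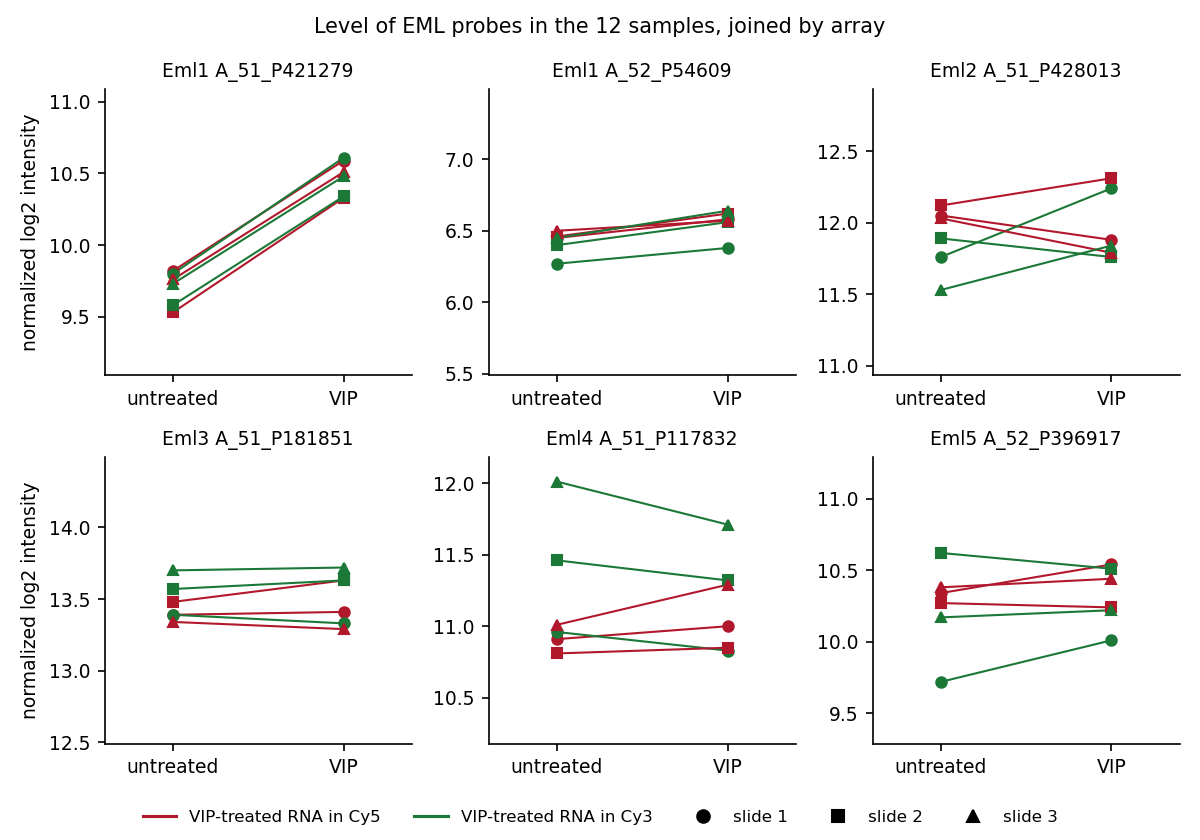
Normalised log2 intensity in the 12 samples for 6 EML probes, with lines that join the untreated and the VIP-treated sample of an array, coloured by the dye of the VIP-treated RNA and marked by slide. All axes span the same number of log2 units. The lines of Eml1 A_51_P421279 rise in parallel from 9.53 to 9.82 to 10.33 to 10.61, whereas those of Eml4 fall for VIP in Cy3 and rise for VIP in Cy5.

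Eml5, the long member with repeated propeller domains, was read by 5 probes spread over 77807 bases of the minus strand of chromosome 12, and none of the 4 tested ones was called. It lies 9.67 Mb from Eml1 on the same chromosome. Its probe A_52_P396917 (chr12:100027550-100027609) ran from 10.01 to 10.54 with VIP (median 10.34) and from 9.72 to 10.62 without (median 10.30) in log2 intensity. The log2 ratio was 0.19, 0.28, -0.02, -0.10, 0.06 and 0.05, and the fitted value 0.08 ± 0.055 (SE, n = 6). The larger values came from slide 1 (mean 0.24), while slides 2 and 3 stood at -0.06 and 0.05.

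The other Eml5 probes scattered around 0. A_52_P340618 (chr12:100037928-100037987) gave 0.01, 0.03, -0.28, 0.17, 0.07 and 0.02 on replicates 1 to 6 and a fitted log2 ratio of 0.004 ± 0.053 (SE, n = 6). A_51_P179511 (chr12:100103482-100103541) gave 0.03, 0.05, -0.34, 0.05, 0.10 and -0.33 and a fitted value of -0.08 ± 0.069. Replicate 3 was thus the lowest array for both of these probes, while the same array stood at 0.35 for A_52_P537392. The sign of A_52_P340618 turned in 5 of its 16 alternatives, within -0.031 to 0.057.

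A_52_P537392 (chr12:100025735-100025794), the Eml5 probe farthest towards the lower coordinate, gave 0.42, 0.00, 0.35, -0.15, 0.11 and -0.16 on replicates 1 to 6. All 3 arrays with VIP in Cy5 were positive (mean 0.29), and none with VIP in Cy3 was (mean -0.10). Its dye effect was 0.20 ± 0.050 (SE, adjusted p = 0.0255 by limma), and its fitted VIP ratio 0.10 ± 0.050 (SE, n = 6), with a 95% interval of -0.02 to 0.21. The fifth probe, A_51_P164045 (chr12:100056417-100056476), was well above background in 2 of 6 VIP-treated and 1 of 6 untreated samples. It was not tested, and its 6 ratios ran from -0.18 to 0.18.

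The dye effect was called for these 2 of the 9 tested EML probes, Eml4 and Eml5 A_52_P537392, against 13.8% of all tested probes. It was called for 1 EML probe without replicate 2 or without replicate 5, and for 0 without replicate 1, 3, 4 or 6. The level of replicate 1 with VIP was the highest of the 6 treated samples for each of the 4 tested Eml5 probes, at 10.54, 8.81, 8.47 and 8.17. Among the untreated samples, replicate 1 was the highest for A_52_P340618 and A_51_P179511 and replicate 4 for A_52_P396917 and A_52_P537392.

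Eml6, the closest relative of Eml5, is listed on the array under the Riken name C230094A16Rik and was not among the selected genes. Its 1 tested probe, A_52_P681898, gave a log2 ratio of -0.02 ± 0.046 (SE, n = 6). Another, A_52_P117221, was above background in all samples, but the spot was marked as an outlier on 3 arrays and the probe was not tested.

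The other genes of the microtubule system were read from 5 lists, with the brightest tested probe for each gene. Of 118 listed genes 99 were tested, and 3 rose and 1 fell with VIP, or 4.04%. Over all 18827 gene names read in this way, which include such identifiers, 2.93% were called. The median log2 ratio was 0.022 over the listed genes and -0.0017 over all gene names. The shares lie close together, so the lists as such do not stand apart from the array.

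Among 40 tested genes of stabilising and plus-end proteins, Clasp2 and Clip1 rose and none fell, with a median log2 ratio of 0.028. Clasp2, which protects growing microtubule ends, was higher on 6 of 6 arrays, with a lowest ratio of 0.15, a median of 0.43 and a highest of 0.55. The fitted log2 ratio was 0.38 ± 0.048 (SE, n = 6), a 1.30-fold rise (adjusted p = 0.0026 by limma), with slide means of 0.43, 0.35 and 0.36. Clasp2 kept its call when each replicate was left out in turn (adjusted p from 0.00296 to 0.0174 by limma). It missed the threshold with the processed signals (0.0646), the deposited table (0.06) and the unpaired fit (1). Clip1, which tracks microtubule plus ends and links them to cargo, was higher on 6 of 6 arrays, from 0.11 to 0.32. It rose by 0.22 ± 0.045 (SE, adjusted p = 0.0281 by limma), its other probes stood at 0.14 and 0.12, and the call was lost whichever replicate was left out (adjusted p from 0.0525 to 0.118).

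Of 14 tested tubulins, the building blocks of the filament, Tubb2a rose and none fell, and the median of the list was 0.065. Tubb2a ran from -0.09 to 0.43 over the arrays (median 0.28), was higher on 4 of 6, and rose by 0.21 ± 0.046 (SE, adjusted p = 0.0411 by limma). Its other probes were called too, at 0.37 (5 arrays, adjusted p = 0.0121 by limma) and 0.38 (0.00405), and the mean of its probes stood at 0.31 (0.0094). The call of the brightest probe alone was lost whichever replicate was left out (adjusted p from 0.0518 to 0.144). Tubulin genes share long stretches of sequence, and how far these probes bind related transcripts was not tested.

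Of 13 tested enzymes that modify tubulin, Ttll3, a glycylating ligase, fell and none rose, with a list median of 0.027. Ttll3 was lower on 6 of 6 arrays, from -0.34 to -0.08 (median -0.23), and fell by 0.22 ± 0.047 (SE, adjusted p = 0.0319 by limma). Its other probe stood at -0.05. It was called without replicate 4 (adjusted p = 0.0325) but not without replicate 1, 2, 3, 5 or 6 (up to 0.116).

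No gene was called among 11 tested destabilising and severing proteins (median 0.008, 1 with an unadjusted p under 0.05 by limma). The lowest p values belonged to the kinesins Kif18a, which limits spindle microtubule length, at 0.21 ± 0.054 (adjusted p = 0.0665) and Kif2a, which takes microtubules apart, at -0.07 ± 0.041 (0.455). None was called either among 21 tested partners of EML proteins, NEK kinases and nucleation factors (median 0.011, 4 with an unadjusted p under 0.05). There Nudcd2, a relative of the EML4 partner NudC, stood at -0.14 ± 0.043 (adjusted p = 0.137) and Tubgcp4, a gamma-tubulin complex subunit, at 0.12 ± 0.045 (0.215).

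**Figure D4:**
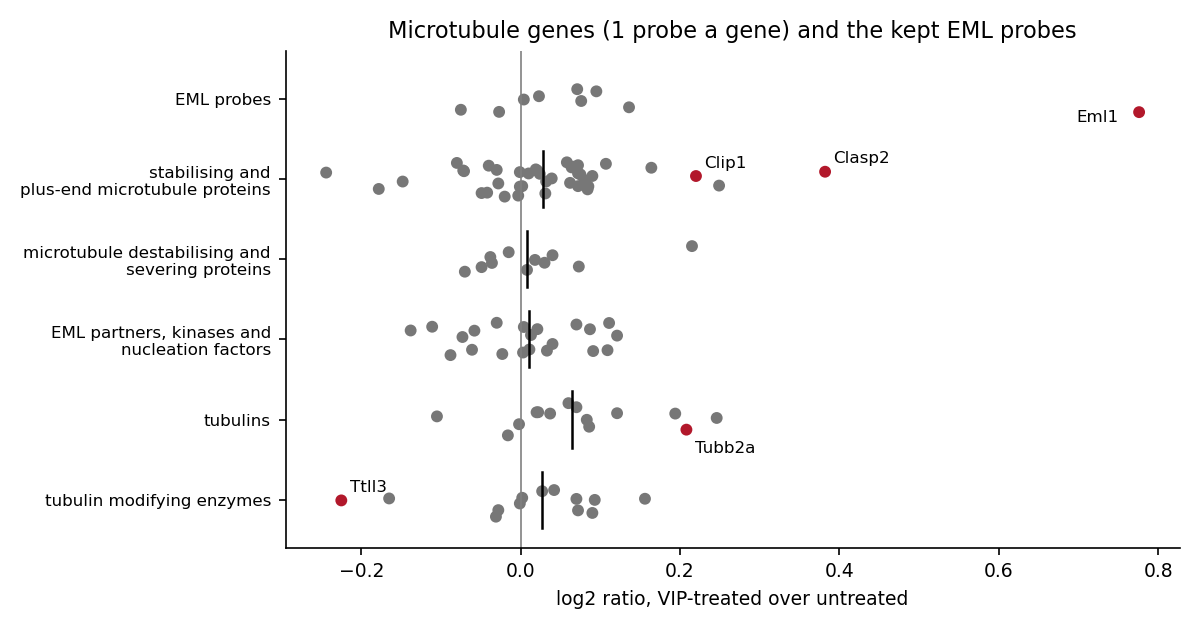
Fitted log2 ratio of VIP-treated over untreated for the 9 tested EML probes and for 99 genes of 5 microtubule lists, 1 probe for each gene, with called ones in red, others in grey and the median of each list as a black bar. Eml1 lies at 0.78 and Clasp2 at 0.38, and the list medians lie between 0.008 and 0.065.

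Of 89 tested probes of other genes near the EML genes on the chromosome, 1 was called, against 2.78% of all tested probes. Within 250 kb of an Eml1 probe, 4 probes of other genes were tested and none was called, with log2 ratios from -0.191 to 0.021. Evl, an actin regulator 149 kb away, had the lowest of these, at -0.19 ± 0.052 (SE, adjusted p = 0.0864 by limma). Near Eml2, 1 of 29 tested probes was called, that of the kinesin light chain gene Klc3 at 188.1 kb, which rose by 0.23 ± 0.053 (SE, adjusted p = 0.0438 by limma). Without replicate 2, 3, 4, 5 or 6 Klc3 was not called (adjusted p up to 0.139). None of 45 tested probes near Eml3, 3 near Eml4 or 8 near Eml5 was called.

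Likeness to Eml1 over the arrays could be described only within a narrow range. The 6 dye-adjusted ratios of A_51_P421279 span only 0.059, and the 5 genes most correlated with them among 12565 were Scd2, Olfr1180, Tbccd1, Slc48a1 and Erlin1. Pearson's r over these 6 arrays was 0.998 for Scd2 and 0.994 for Erlin1, as a description of values that share arrays and dyes. Their own log2 ratios were 0.15, -0.05, -0.04, 0.10 and -0.01, and none was called by limma. The highest of 12565 correlations over 6 values can be this large without any link to Eml1, and a link was not tested.

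The cyclic AMP response element was looked for in RefSeq promoter windows of 300 bases (GRCm38.p6), on both strands. The full motif TGACGTCA occurred in 588 of 32851 windows (1.79%) and in none of the windows of Eml1 (5), Eml2 (2), Eml3 (2), Eml4 (2) or Eml5 (1). Its short form TGACG, which every full motif contains, occurred in 20.8% of all windows. It was found in 1 of 2 windows of Eml2, 1 of 2 of Eml3 and 2 of 2 of Eml4, and in 0 of those of Eml1 and Eml5. The windows of Eml3, those of Eml4 and some of those of Eml1 overlap almost fully, so they are not independent counts.

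Over the whole array, 764 probes were called, 465 higher and 299 lower with VIP (60.9% higher), and 4349 had an unadjusted p under 0.05. Leaving out replicate 1 gave 306 calls, replicate 5 gave 276 and replicate 6 gave 438. The higher share was 75.4% with the processed signals, 74.7% with median centring, 74.1% with the deposited table and 100% in the unpaired fit. All 10 T cell markers, which include Cd3e and Cd4, were well above background in all untreated samples. So were both CD8 T cell markers, 8 of 9 B cell, 10 of 11 macrophage, 3 of 7 neutrophil, 5 of 7 dendritic, 6 of 7 NK cell and 6 of 9 erythroid and platelet markers with a probe on the array. Of the 64 listed markers 54 were tested, and 0 of these were called in the limma comparison with VIP, against 2.93% of all gene names. An unadjusted p under 0.05 by limma was seen for 5 of them. These were Cd3d at -0.13, Cd3g at -0.14 and Itga2b at -0.12, and Cd8b1 at 0.13 and Cd14 at 0.19 on the log2 scale. Cd3d and Cd3g were lower with VIP on every array. The list medians ran from -0.075 for erythroid and platelet to 0.087 for CD8 T cell markers.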

How the data were processed

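Each array's spot intensity values were deposited as scanner files made by Agilent Feature Extraction (version 9.5.1.1 per the file headers), which place the probes on mm9. The authors also deposited a table of log10 ratios. The deposited log10 ratios matched those of the scanner files to 4.8e-06 after the sign was turned on replicates 2, 4 and 6, so positive values are higher with VIP; that table served as an alternative. Mean signal over median local background was corrected with normexp (offset 50) and normalised by loess within arrays with limma (version 3.58.1, R 4.3.3). Spots of controls and outlier spots (1.93% to 8.96% of an array) were left out. Of 41174 probes, 27454 were well above background on at least 3 of 6 arrays in either treatment and had values on 2 or more arrays per dye orientation. The limma fit of log2 ratios, 2-sided with a dye term and Benjamini-Hochberg adjustment over all tested probes, is paired because both samples of a replicate share an array. Levels of single samples came from quantile normalization of average intensity across arrays. Errors are limma's moderated standard errors, for which the variance of each probe is drawn towards that of all tested probes. They are thus not the plain spread over 6 arrays, as for Eml1 A_51_P421279 (SD of the ratios 0.026, SE 0.039). The number of arrays limits the precision. Median Cy3 signals ran from 83.6 to 108 and Cy5 signals from 148 to 235. Of the probes, 24844 were named through RefSeq accessions. Among the others, a name that was a synonym of a single gene was replaced by the symbol of that gene, as for Eml6 A_52_P681898. The rest kept the name in the files. Members, lists and tests were chosen with earlier results of these data known. All EML probes were named, and from each list the called genes or, without any, the 2 of lowest p. The called genes near EML genes and the 5 genes most like Eml1 were also named, while Evl was chosen after its value was seen. The fit was tested on simulated data. Alternatives changed signals, background, centring, dye term, slide, pairing, filters and outliers, and left out each replicate.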

Additional observations from a re-analysis of the deposited data

Results flagged for a closer look

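In a group of 6 values, a value was singled out where its gap to the nearest other, divided by the range, passed Dixon's 95% limit. For the second Eml1 probe, A_52_P54609, the VIP-treated sample of replicate 2 had a log2 intensity of 6.38, while the other 5 lay between 6.56 and 6.64 (gap over range 0.68). For the Eml5 probe A_52_P340618, the log2 ratio of replicate 3 was -0.28, while the other 5 arrays lay between 0.01 and 0.17 (gap over range 0.646). In all 30 groups of EML values were examined in this way, and chance alone singles out about 1 in 20.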

How the results depend on the processing

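The ratio of Eml1 A_51_P421279 was 0.766 to 0.781 when each replicate was left out, and that of A_52_P54609 was 0.126 to 0.148. The count of called EML probes was 1 in each of the alternatives run except the offset of 10, where it was 2. It describes the processing only, since the response of Eml1 was known when the family was chosen. The pairing within arrays matters for the count over the array. Against 764 called probes (465 higher, 299 lower), the fit with no replicate block on 12 unpaired channels called 3 (3 higher, 0 lower). The processed signals gave 57 (43 and 14), the authors' deposited ratios called 58 (43 and 15), the offset of 10 gave 393 (258 and 135) and no dye term 162 (113 and 49). Median centring gave 134 lower ones. Leaving out each replicate gave 276 to 586 (177 to 386 higher, 99 to 226 lower). The count of called microtubule genes, 4 in the main setting, was 0 with the processed signals, the deposited table and the unpaired fit, 1 with median centring, offset 10 or no dye term, 2 with outlier spots kept and 1 to 3 when replicates were left out. Of the 4 genes themselves, 1 to 2 kept their call when replicates were left out. The count of dye effects called at EML probes, 2 in the main setting, was 0 with the processed signals, the deposited table and the unpaired fit, 1 with offset 10 or the slide as a block, 9 with median centring and 0 to 1 when replicates were left out. The count of calls near EML genes, 1 in the main setting, was 0 with the processed signals, the deposited table, median centring, offset 10, no dye term, the unpaired fit and outlier spots kept, 2 with the slide as a block, and 0 to 1 when replicates were left out. Without replicate 2 the 1 call was not Klc3. The cause of these differences was not tested. Signal over background limits A_52_P54609 and the Eml5 probe A_51_P164045 most.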
